A study of Homo sapiens with 16 samples.

Results

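The response of HCC4006 cells to AZ1366, given alone, was read from 8 of the 16 libraries of the series, the 4 labelled AZ1366 and the 4 labelled vehicle, taken by their labels. HCC4006 is an established human line of non-small cell lung cancer whose EGFR carries an activating mutation, and AZ1366 is an inhibitor of the tankyrases. Per the labels, cells seeded at 25% confluency had 24 hours without compound, followed by 24 hours with AZ1366 (100 nM), gefitinib (100 nM), AZ1366 and gefitinib together (100 nM each) or, in the vehicle group, DMSO. The gefitinib and combination groups, of 4 libraries each, are described below only through a direct comparison with gefitinib and the effect of AZ1366 in cells that also received gefitinib. All 16 libraries entered the filter and the fit, so these groups also share in the estimate of spread behind each p-value. Gefitinib inhibits the EGFR kinase. PolyA RNA was sequenced, and the deposited level of each locus is in FPKM, which scales fragments by transcript length and by the total of the library. Whether libraries of 1 group stem from separate cultures is not stated in the labels. P-values therefore measure only the spread between these libraries, which may be technical.

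Tankyrases, TNKS and TNKS2, are PARP family enzymes that attach chains of ADP-ribose to their partners, and the ubiquitin ligase RNF146 reads these chains and marks the partners for degradation. Among the partners are AXIN1 and AXIN2, scaffolds of the complex that destroys beta-catenin, and the angiomotins AMOT, AMOTL1 and AMOTL2, which hold the coactivators YAP1 and TAZ (encoded by WWTR1) out of the nucleus. Blocking tankyrases is known to stabilise these proteins and so to lower Wnt and YAP signalling, which acts on genes through TCF and TEAD factors; protein levels are not part of these data.

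YAP and TAZ reach DNA through TEAD factors, which bind GGAATG, often beside sites of AP-1 (TGANTCA, N for any base). Bases upstream of the transcription start, 250 in number, are shown for 4 genes of the YAP/TAZ signature whose levels are given below: CTGF, the textbook target, ANKRD1, NUAK2, and F3, whose window held no GGAATG. They are from RefSeq, assembly GRCh38.p14, all on the minus strand, at chr6:131951373-131951622 (CTGF, listed by RefSeq as CCN2), chr10:90921088-90921337 (ANKRD1), chr1:205321746-205321995 (NUAK2) and chr1:94541760-94542009 (F3). Capitals mark GGAATG on either strand (CATTCC when read on the other) and TGANTCA, in windows read in the direction of the gene.
CTGF: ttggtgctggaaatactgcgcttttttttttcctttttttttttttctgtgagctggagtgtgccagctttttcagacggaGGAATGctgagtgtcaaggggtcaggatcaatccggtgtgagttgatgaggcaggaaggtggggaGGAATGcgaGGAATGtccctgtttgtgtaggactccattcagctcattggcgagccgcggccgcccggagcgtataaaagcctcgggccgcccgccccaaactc
ANKRD1: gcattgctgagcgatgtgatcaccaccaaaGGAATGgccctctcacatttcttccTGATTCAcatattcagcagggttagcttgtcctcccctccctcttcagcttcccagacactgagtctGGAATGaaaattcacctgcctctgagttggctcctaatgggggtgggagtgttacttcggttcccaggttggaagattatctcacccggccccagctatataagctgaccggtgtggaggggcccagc
NUAK2: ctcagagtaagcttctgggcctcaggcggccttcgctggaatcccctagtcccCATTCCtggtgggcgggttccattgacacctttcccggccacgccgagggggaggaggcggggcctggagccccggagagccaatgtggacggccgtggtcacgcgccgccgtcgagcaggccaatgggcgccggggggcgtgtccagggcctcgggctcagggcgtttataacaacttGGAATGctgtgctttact
F3: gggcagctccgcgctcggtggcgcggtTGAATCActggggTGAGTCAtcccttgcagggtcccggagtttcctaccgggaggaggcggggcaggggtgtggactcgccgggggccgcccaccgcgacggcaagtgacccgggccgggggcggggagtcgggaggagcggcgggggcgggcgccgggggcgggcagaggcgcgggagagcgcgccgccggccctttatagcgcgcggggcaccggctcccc
In these 4 windows the TEAD core GGAATG began 169, 104 and 95 bases before the start of CTGF, 220 and 128 before that of ANKRD1, and 197 and 18 before that of NUAK2. TGANTCA began 195 bases before the start of ANKRD1 and 223 and 210 before that of F3. Windows of 300 bases (250 before the start and 50 after) were found for 16 of the 22 signature genes, and 9 of the 16 (56.2%) held GGAATG, against 16.7% of all 27305 genes in the RefSeq table. Of tested genes with a window the share was 16.3% for those lower with AZ1366 in all 3 fits described below, 14% for those higher and 14.6% for those not called. TGANTCA stood in 2 of 16 signature genes (12.5%) and in 9.4% of all genes. A match is a description of letters, not of a bound site, and CYR61 was among the genes with no entry.

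The 8 libraries had summed FPKM of 433357 to 462151, with 11326 to 11707 loci at 1 FPKM or more. Epithelial markers (EPCAM, CDH1, KRT7, KRT8, KRT18 and KRT19) summed to 5199 to 5922 FPKM with vehicle and 3668 to 4920 with AZ1366. Within this list KRT7, KRT8 and KRT18 were lower, EPCAM was higher, and CDH1 and KRT19 did not pass. Leukocyte, endothelial, fibroblast, erythroid and neuroendocrine markers summed to at most 2.66 FPKM per list in any library, with HBB and INSM1 at 0 in all 8. The part of the lower keratin levels in the results below was not tested. AZ1366 library 1 stood apart from the other AZ1366 libraries. On the first principal component of the 8 libraries (76.02% of variance) it scored -0.22, between the vehicle libraries (-25.11 to -13.62) and AZ1366 libraries 2 to 4 (20.07 to 25.83). Its differences from vehicle were 0.464 times the mean of the other 3, by the slope across called loci, and it lay nearer to vehicle than that mean at 5772 of 6801 called loci. Why it differs was not tested.

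Change also went with transcript length. Across 11537 loci with a length, Spearman's rho of the change with length was -0.382 as deposited, -0.417 without AZ1366 library 1 and 0.007 after each library was corrected for smooth trends on length and GC content. The correction takes out such trends, so the last value follows from it by construction. These points share the same 8 libraries, so no p is given. Loci were split into 5 length classes of near equal number. The shortest class, up to 1637 nucleotides, had a median log2 change of 0.11, the next -0.03, and the 3 longer classes -0.18, -0.19 and -0.20. Calls followed: 888 higher and 294 lower in the shortest class, 194 higher and 1200 lower in the longest. AZ1366 library 1 had medians of 0.098 in the shortest class and 0.010 in the longest. Libraries 2 to 4 had 0.0335, 0.1574 and 0.1223 in the shortest class, where vehicle library 2 had 0.0387. In the longest class they had -0.2898, -0.2929 and -0.2126, a fall that library 1 lacked on the deposited scale. These medians depend on scaling: the median-ratio factor was 1.0904 for library 1 and 0.912 to 0.9721 for libraries 2 to 4. What makes change depend on length was not tested.

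**Figure D1:**
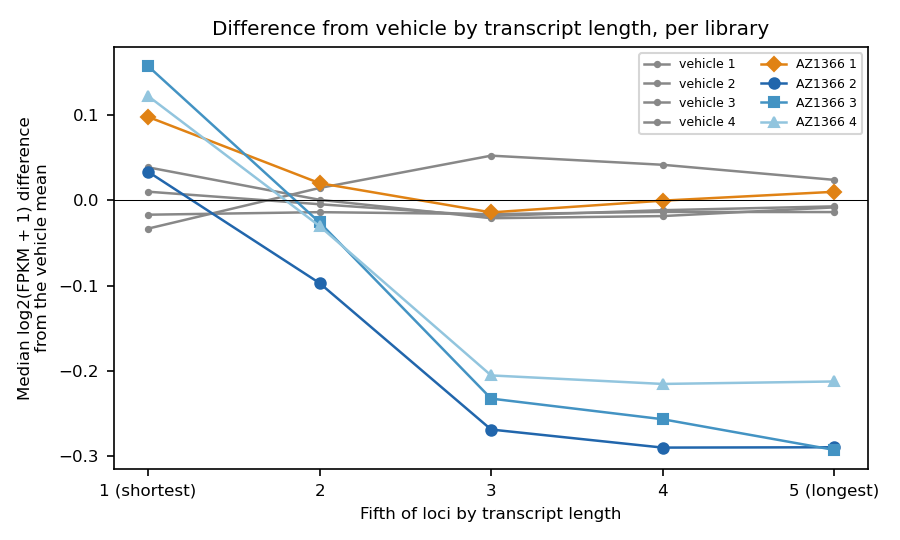
Median difference from the vehicle mean on the log2(FPKM + 1) scale (y) over the 5 transcript length classes (x, shortest to longest), 1 line per library. AZ1366 libraries 2 to 4 lie below all vehicle libraries in the 3 longer classes, while AZ1366 library 1 stays between -0.014 and 0.020 in all classes but the shortest.

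Of 11647 loci with a mean of at least 1 FPKM, 6801 differed between AZ1366 and vehicle at an adjusted p under 0.05 (limma on log2(FPKM + 1), Benjamini-Hochberg). Of all tested loci 18.6% were higher (2168) and 39.8% lower (4633), and these shares are the background for list counts as deposited. List counts without AZ1366 library 1 or after length and GC correction have another background, the totals of those settings given below. Most changes were small: the median absolute log2 change of called loci was 0.327, with 1972 under 0.25 and 1324 at 0.5 or more, and 17 rose and 31 fell by at least 1. A change of 1 is a doubling of FPKM + 1, so the fold of FPKM itself is larger at low levels. Fitted on the 8 libraries of AZ1366 and vehicle alone, 1839 loci were higher and 4063 lower. In 1695 loci all AZ1366 libraries lay above all vehicle libraries and in 3029 below. Without AZ1366 library 1, 2178 were higher and 5716 lower, and 97.7% of the calls were made again with 0 of opposite sign. After length and GC correction, of 11537 loci with a length 3371 were higher and 3541 lower. The correction also brings all libraries to the same mean over these loci, so a near equal split is largely built in. Of the calls as deposited 70.5% were made again and 86 had the opposite sign. The split of calls moved with the scaling: 31.9% of calls were higher as deposited, 50.04% after median-ratio scaling, 48.03% after quantile normalization and 48.8% after the correction. The median over all loci was -0.10 as deposited and 0.00 after median-ratio scaling, so a fall of that size is the shift of the whole table. Both that scaling and the correction take out this shift by design. A list can therefore move up after the correction by the centring alone, without any part of transcript length. In bulk RNA fewer cells of a kind, such as cells in mitosis, and less RNA per cell cannot be told apart. Calls that had the same sign as deposited, without AZ1366 library 1 and after length and GC correction, called stable below, numbered 1613 higher (14% of 11537 loci with a length) and 3062 lower (26.5%).

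The YAP/TAZ signature, 22 genes used widely as a readout of YAP activity, fell in every member: 22 of 22 were lower, 22 without AZ1366 library 1, and 21 after length and GC correction and after median-ratio scaling. Their median log2 change was -0.65 (all loci -0.10), -0.74 without library 1 and -0.55 after the correction (all loci 0.00). CTGF, a secreted matricellular protein, had 19.5, 19.6, 19.7 and 19.7 FPKM in vehicle libraries 1 to 4 and 9.14, 9.07, 9.31 and 9.16 in AZ1366 libraries 1 to 4. The groups are far apart, library 1 is no exception, and the mean fell 2.14-fold (log2 -1.02 ± 0.04, SE, adjusted p = 2.2e-10; hg19 chromosome 6, 132269317 to 132272518).
ANKRD1, a muscle ankyrin repeat protein, had 13.5 to 13.7 FPKM with vehicle and 5.58, 4.42, 5.32 and 4.16 with AZ1366 (log2 -1.32 ± 0.08, adjusted p = 2.1e-09). CYR61, a relative of CTGF, had 133, 131, 129 and 121 FPKM with vehicle and 86.1, 74.0, 80.4 and 78.5 with AZ1366 (log2 -0.68 ± 0.06, adjusted p = 2.0e-07). Neither gene had overlapping groups, and in both AZ1366 library 1 had the highest level of its group. AMOTL2, itself a tankyrase partner and a brake on YAP, had 30.4, 24.6, 24.1 and 26.2 FPKM with vehicle and 15.9, 10.7, 11.2 and 12.2 with AZ1366 (log2 -1.03 ± 0.11). FJX1, a secreted protein gene of the Fat and Dachsous pathway, went from 44.6 ± 2.78 to 19.8 ± 5.51 FPKM (SD, n = 4), with library 1 highest at 27.8. F3, tissue factor, the starter of coagulation, went from 228 ± 11.9 to 105 ± 8.91 FPKM (log2 -1.11 ± 0.06; -1.15 after length and GC correction). NUAK2, a kinase of the AMPK family, had 8.91, 8.64, 8.10 and 8.12 FPKM with vehicle and 6.54, 4.41, 4.87 and 4.87 with AZ1366 (log2 -0.62 ± 0.09).
In 19 of the 22 genes every AZ1366 library lay below every vehicle library, against 3029 of all 11647 tested loci. The groups overlapped in GADD45A, a growth arrest gene (39.1 ± 8.07 against 27.7 ± 9.32 FPKM), in RBMS3, an RNA-binding protein gene (1.04 ± 0.0646 against 0.803 ± 0.154), and in FOXF2, a transcription factor gene (1.74 ± 0.181 against 1.23 ± 0.264), whose call was lost after the length and GC correction (log2 -0.12). GADD45A lost its call without AZ1366 library 2, where the change was -0.31. IGFBP3, an IGF-binding protein gene, cleared the vehicle range by little: AZ1366 library 1 had 66.6 FPKM and the lowest vehicle library 66.7. The signature's median in AZ1366 library 1 was -0.35, and -0.88, -0.73 and -0.70 in libraries 2 to 4; library 1 was the nearest of the 4 to vehicle in 20 of the 22 genes.

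**Figure D2:**
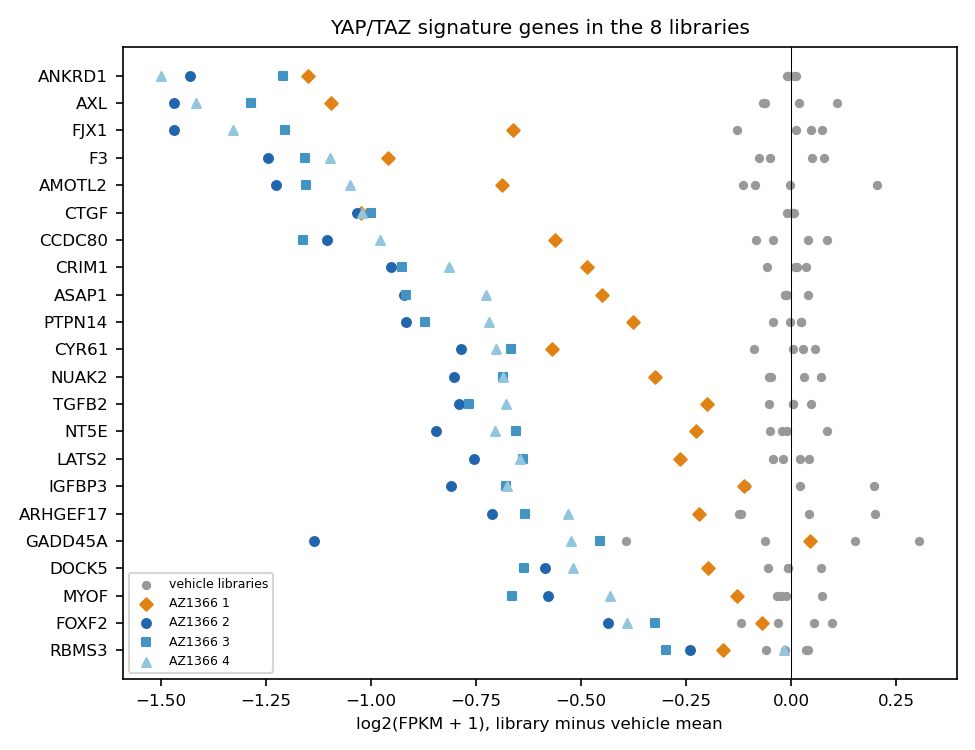
Difference from the vehicle mean on the log2(FPKM + 1) scale (x) for the 22 signature genes (y, ordered by mean change), with grey points for the 4 vehicle libraries and coloured symbols for AZ1366 libraries 1 to 4. CTGF has all 4 AZ1366 libraries between -1.033 and -0.999, and in 20 of the 22 genes library 1 lies nearest to 0.

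ADAMTS1, which encodes a secreted matrix protease, fell most among the genes that the naming rule gave. It had 11, 9.50, 9.94 and 8.98 FPKM with vehicle and 2.09, 1.15, 1.48 and 1.24 with AZ1366, a 6.61-fold fall of the mean (log2 -2.13 ± 0.10, adjusted p = 3.1e-10; -2.24 without library 1, -1.92 after length and GC correction; hg19 chromosome 21, 28208606 to 28217728). AXL, a receptor tyrosine kinase gene and signature member, had 159, 141, 141 and 150 FPKM with vehicle and 68.6, 52.8, 60.0 and 54.8 with AZ1366 (log2 -1.32 ± 0.07; adjusted p = 8.9e-10). COL8A1, a short-chain collagen gene, went from 4.86 ± 0.754 to 1.55 ± 0.288 FPKM, with no overlap. SMURF2, a ubiquitin ligase gene of the TGF-beta pathway, went from 37.0 ± 1.57 to 16.3 ± 4.03 FPKM. All 4 fell by more than 0.9 in log2 in each of the 3 fits.

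**Figure D3:**
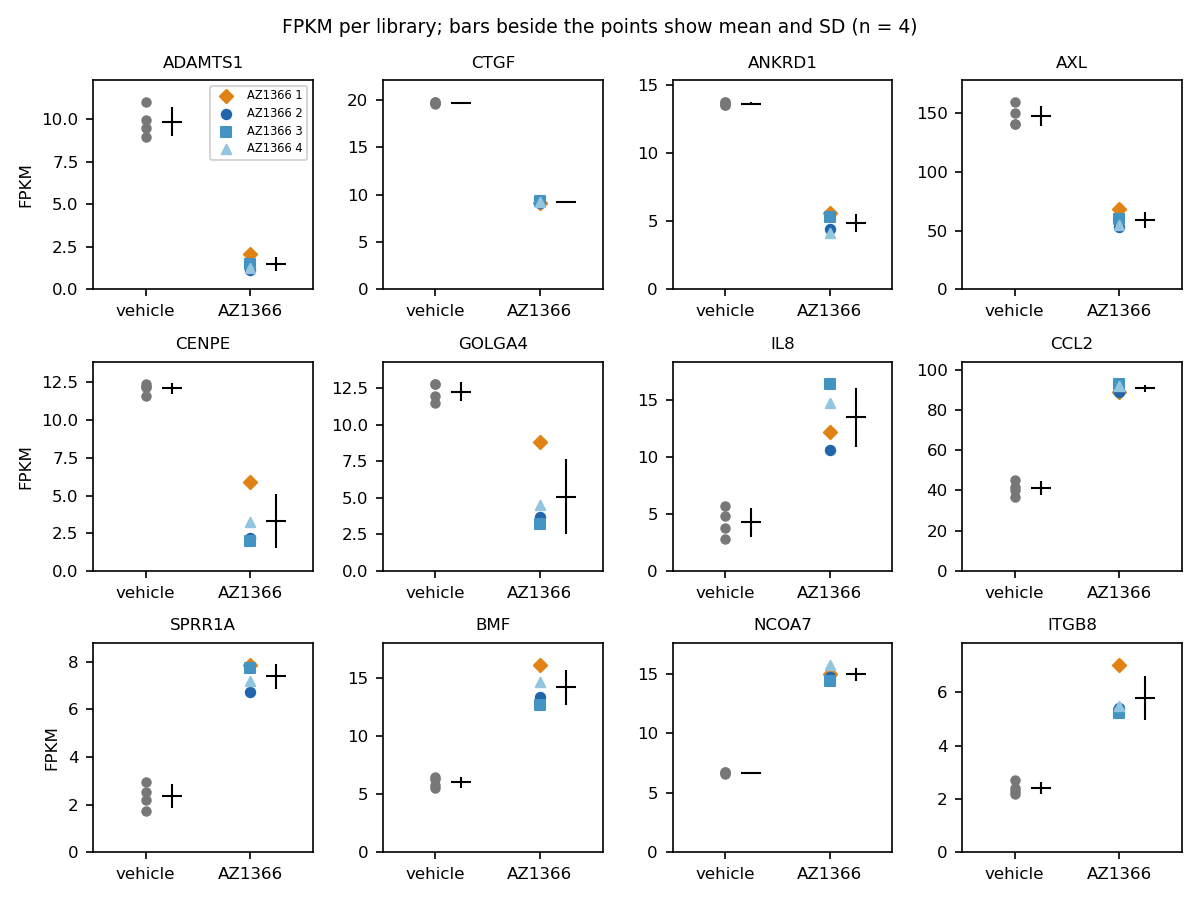
FPKM (y, from 0) of 12 genes in vehicle (grey) and AZ1366 libraries (coloured symbols by library), with bars for mean and SD beside the points. CTGF and CCL2 have 4 AZ1366 libraries that lie close together, while in CENPE (5.87 against 1.96 to 3.22 FPKM) and GOLGA4 (8.83 against 3.23 to 4.52) library 1 lies between the groups.

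Genes of the Hippo pathway, whose kinases restrain YAP and TAZ, were lower on balance: 19 of 29 fell and 5 rose, with a median of -0.30 (-0.42 without library 1, -0.18 and 17 lower with 4 higher after length and GC correction). Regulators upstream of the kinases are given first. WWC1, which encodes the scaffold KIBRA, had 38.3, 33.5, 34.3 and 34.7 FPKM with vehicle and 19.7, 13.2, 13.4 and 14.4 with AZ1366 (log2 -1.18 ± 0.11, adjusted p = 5.1e-07). AJUBA, a LIM protein that binds the LATS kinases, went from 41.3 ± 3.07 to 20.4 ± 3.51 FPKM, and FRMD6, a FERM domain protein gene, from 82.7 ± 2.02 to 46.0 ± 4.20. NF2, which encodes merlin, went from 19.4 ± 2.10 to 10.2 ± 1.66 FPKM. None of these 4 had overlapping groups. Of the kinases, LATS2, itself in the signature, went from 3.98 ± 0.136 to 2.37 ± 0.528 FPKM, and LATS1, STK3 and STK4 were lower as deposited.
Transcripts of the coactivators themselves gave small or no calls. YAP1 had 34.1, 33.6, 32.9 and 33.8 FPKM with vehicle and 34.8, 24.8, 26.7 and 26.6 with AZ1366 (log2 -0.25 ± 0.08, adjusted p = 0.014). Library 1 lay above the vehicle libraries, and the call was lost without AZ1366 library 2 (-0.20). WWTR1 did not pass (36.7 ± 1.02 against 34.8 ± 7.07 FPKM, adjusted p = 0.43); its library 1 was highest at 45.2, and without it the change was -0.22 and passed, while after the correction it was 0.03. TEAD1 went from 31.4 ± 0.172 to 24.6 ± 3.32 FPKM and TEAD4 from 8.55 ± 0.821 to 5.97 ± 0.405, both lower. TEAD2, in contrast, was higher, from 4.81, 3.89, 3.73 and 4.34 to 6.19, 6.13, 6.48 and 6.61 FPKM (log2 0.51 ± 0.06; 0.65 after the correction), as was VGLL3, a TEAD cofactor gene (6.05 ± 0.155 to 7.38 ± 0.781). MOB1A, VGLL4 and CRB3 were also higher as deposited, without being stable.

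Transcripts of the drug's targets did not pass the test. TNKS had 3.92, 3.87, 3.93 and 3.61 FPKM with vehicle and 4.38, 3.83, 3.6 and 3.99 with AZ1366 (log2 0.03 ± 0.05, adjusted p = 0.62), and TNKS2 14.7, 15.3, 15.6 and 14.9 against 17.8, 13.4, 13.6 and 14.2 (log2 -0.04 ± 0.07, adjusted p = 0.65). The groups of both overlapped. After length and GC correction both were higher and passed (0.25 and 0.12), but without AZ1366 library 1 TNKS2 was lower and passed (-0.13), so its calls were opposite under the 2 settings. RNF146 was higher, from 8.36 ± 0.610 to 9.95 ± 1.1 FPKM (log2 0.22 ± 0.07, adjusted p = 0.014), with overlapping groups; the call was lost without vehicle library 4 (0.19). Among 21 tankyrases and partners 13 were lower and 1, RNF146, higher, with a median of -0.28. The median was -0.41 without library 1 and -0.13 after the correction, where 6 were higher and 11 lower. AXIN1 had 6.08, 5.07, 4.94 and 5.34 FPKM with vehicle and 4.20, 2.49, 2.59 and 2.78 with AZ1366 (log2 -0.68 ± 0.11, adjusted p = 1.5e-04; -0.33 after the correction). AMOTL1 went from 9.27 ± 0.205 to 6.88 ± 0.841 FPKM (log2 -0.39 ± 0.07; -0.13 after the correction), and PARP1, the abundant nuclear PARP, from 63.3 ± 4.80 to 37.8 ± 7.39. AMOT was under the filter at means of 0.0207 FPKM with vehicle and 0.0432 with AZ1366, so its transcript was close to absent from the table in both groups.

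Feedback targets of Wnt signalling were mostly too low to test in these cells: 6 of 22 passed the filter. AXIN2, a widely used target, had 0.1, 0.0353, 0.0730 and 0.0897 FPKM with vehicle and 0.0307, 0.0144, 0.0141 and 0.0215 with AZ1366; the groups do not overlap, but the level is far under 1 FPKM. NKD1 and LEF1 had group means of 0.0104 to 0.0645 FPKM. SP5 had means of 0.867 and 0.547 and NOTUM 0.113 and 0.0623, also untested. Of the 6 tested genes 2 fell and 1 rose (median -0.10), and after length and GC correction 1 was lower and 3 higher (median 0.06). DKK1, a secreted Wnt antagonist, had 58.3, 68.4, 68.1 and 63.4 FPKM with vehicle and 38.7, 37.9, 43.6 and 39.1 with AZ1366 (log2 -0.68 ± 0.06, adjusted p = 5.1e-07), and its call was stable. ZNRF3, a ligase that removes Wnt receptors, went from 2.02 ± 0.112 to 1.34 ± 0.282 FPKM, a call that was lost after the correction (-0.07). BAMBI, a decoy receptor of TGF-beta, was the 1 that rose, from 1.63 ± 0.223 to 2.41 ± 0.231 FPKM. LGR5, a receptor of R-spondins, had 1.94 ± 0.180 and 1.90 ± 0.132 FPKM and did not pass (adjusted p = 0.83), with a change of -0.02, but was called higher after the correction (0.16).
Of 31 receptors, ligands and destruction complex genes 21 were lower and 1 higher (median -0.22), but after length and GC correction 10 were lower and 10 higher (median -0.03). BCL9L, a beta-catenin coactivator gene, went from 19.2 ± 1.74 to 10.7 ± 1.90 FPKM, and FZD2, a Wnt receptor gene, from 10.1 ± 0.290 to 6.48 ± 0.766; both calls were stable. WLS, the carrier that brings Wnt proteins to the cell surface, was the gene that rose, from 29.6, 29, 28.6 and 31.6 to 40.0, 41.7, 42.1 and 41.9 FPKM (log2 0.47 ± 0.04). CTNNB1, which encodes beta-catenin, did not pass (87.8 ± 1.82 against 92 ± 10.6 FPKM, adjusted p = 0.43), though it was higher after the correction (0.23).

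Golgins and other long coiled-coil proteins, which tether vesicles and organise centrosomes, were lower in 30 of 32 cases, with none higher. The median was -0.61, -0.79 without AZ1366 library 1 and -0.46 after length and GC correction, where 29 were lower; in AZ1366 library 1 it was -0.17, against -0.87, -0.85 and -0.65 in libraries 2 to 4. Their median transcript length was 7624 nucleotides, against 2820 over all loci. CENPE, a kinetochore motor gene, had 12.2, 12.2, 12.4 and 11.6 FPKM with vehicle and 5.87, 2.15, 1.96 and 3.22 with AZ1366 (log2 -1.69 ± 0.31, adjusted p = 2.8e-04; -1.64 after the correction). GOLGA4, a golgin of the trans-Golgi, had 12.8, 12, 12.8 and 11.5 FPKM with vehicle and 8.83, 3.67, 3.23 and 4.52 with AZ1366 (log2 -1.22 ± 0.23). In both genes all 4 AZ1366 libraries lay below vehicle, with library 1 nearest to it. KTN1, kinectin, a membrane anchor of the endoplasmic reticulum, had 153, 159, 168 and 155 FPKM with vehicle and 116, 56.8, 54.2 and 68.7 with AZ1366 (log2 -1.16 ± 0.26, adjusted p = 1.2e-03).

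Cell cycle genes were lower on balance. Of 53 G2/M genes 43 fell and 2, CDK1 and CCNB2, rose (median -0.47), and after length and GC correction 44 fell and none rose (median -0.35). Of 49 G1/S and replication genes 28 fell and 1, the primase subunit gene PRIM2, rose (median -0.22; -0.09 after the correction, with 23 lower). MKI67, the proliferation marker, had 28.4, 27.3, 24.9 and 24.7 FPKM with vehicle and 21.1, 10.6, 9.57 and 13.3 with AZ1366 (log2 -0.96 ± 0.17, adjusted p = 2.3e-04; -0.67 after the correction). FOXM1, the factor that drives mitotic genes, went from 43.7 ± 3.79 to 28.4 ± 3.87 FPKM. CDC20, an activator of the anaphase-promoting complex, went from 114 ± 13.4 to 74.5 ± 7.10, and TACC3, a spindle protein gene, from 73.0 ± 6.25 to 43.3 ± 7.40. No AZ1366 library reached the lowest vehicle library in these 4 genes. MCM2, of the replicative helicase, went from 53 ± 4.25 to 36.1 ± 3.63 FPKM. CDK1, the mitotic kinase, went the other way as deposited, at 141 ± 15.8 against 161 ± 9.95 FPKM (log2 0.19 ± 0.07, adjusted p = 0.024), but the groups overlapped and the change was -0.03 after the correction. Homologous recombination and Fanconi genes were lower in 23 of 39 cases and higher in 1, among them MDC1, a scaffold at DNA breaks (10.6 ± 1.08 to 6.19 ± 1.53 FPKM).
Ribosome biogenesis genes were lower in 33 of 36 cases and higher in none (median -0.59; -0.66 without library 1, -0.43 after the correction with 31 lower). TCOF1, treacle, a cofactor of RNA polymerase I, had 44.5, 35.2, 33.1 and 33.5 FPKM with vehicle and 21.8, 12.3, 12.8 and 14.4 with AZ1366 (log2 -1.23 ± 0.15, adjusted p = 7.0e-06). DKC1, dyskerin, which modifies ribosomal RNA, went from 89.7 ± 1.13 to 54.3 ± 6.51 FPKM, and the RNA acetyltransferase gene NAT10 from 76.3 ± 2.19 to 50.6 ± 2.45. MYC, a driver of ribosome synthesis, had 5.69, 6.63, 5.81 and 4.77 FPKM with vehicle and 3.30, 2.56, 3.27 and 2.95 with AZ1366 (log2 -0.74 ± 0.08). This list fell in AZ1366 library 1 too, by a median of -0.39 against -0.68, -0.66 and -0.63 in libraries 2 to 4.

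Ribosomal proteins and respiratory chain subunits moved the opposite way from biogenesis genes as deposited: 51 of 78 cytosolic ribosomal protein genes were higher and none lower (median 0.25), and 45 of 72 nuclear oxidative phosphorylation genes were higher and 3 lower (median 0.32). These are short transcripts, with median lengths of 837 and 847 nucleotides, and after length and GC correction the counts were 30 higher with 8 lower and 39 higher with 8 lower (medians 0.10 and 0.16). RPS27, of the small subunit, went from 1400 ± 190 to 2350 ± 272 FPKM (log2 0.75 ± 0.11; 0.48 after the correction). COX7B, of cytochrome oxidase, had 237, 375, 344 and 315 FPKM with vehicle and 433, 594, 575 and 579 with AZ1366 (log2 0.79 ± 0.13; 0.45 after the correction), and NDUFA1, of complex I, went from 109 ± 12.8 to 165 ± 15.7. The groups of all 3 genes were separate. Proteasome genes had no steady direction across settings. As deposited 12 of 31 were higher and 5 lower (median 0.00, all loci -0.10). After median-ratio scaling 14 were higher and 3 lower, and after length and GC correction 5 were higher and 9 lower.

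EGFR, the receptor whose mutation these cells carry, had 84.0, 77.1, 74.8 and 74.7 FPKM with vehicle and 54.3, 35.0, 35.9 and 39.9 with AZ1366 (log2 -0.92 ± 0.11, adjusted p = 9.8e-06; -0.80 after length and GC correction). Its ligand HBEGF went from 7.82 ± 0.321 to 4.75 ± 0.259 FPKM, and NRG1, the ligand of ERBB3, from 11.3 ± 0.868 to 5.28 ± 0.632. No AZ1366 library reached a vehicle library in these 3 genes. Of 15 ERBB receptors, ligands and regulators 8 were lower and 3 higher, and of 26 other receptor tyrosine kinases and ligands 18 were lower and 2, KIT and EFNA1, higher (median -0.36; -0.17 after the correction, with 14 lower and 9 higher). EPHA2, an ephrin receptor gene, had 75.6, 61.5, 58.2 and 62.9 FPKM with vehicle and 37.7, 24.6, 26.9 and 27.1 with AZ1366 (log2 -1.13 ± 0.11). GAS6, the ligand of AXL, went from 56.3 ± 9.21 to 25.7 ± 5.98 FPKM, so receptor and ligand were both lower.
Genes that follow ERK activity were split. DUSP6, an ERK phosphatase and feedback target, had 23.5, 23.6, 23.0 and 23.8 FPKM with vehicle and 26.2, 19.98, 21.7 and 23.5 with AZ1366, and did not pass (log2 -0.05 ± 0.08, adjusted p = 0.64), but was called higher after the correction (0.13). FOSL1, an AP-1 subunit gene, had 51.2, 57.1, 44.6 and 45.3 FPKM with vehicle and 26.7, 17.8, 24.2 and 22.3 with AZ1366 (log2 -1.10 ± 0.10, adjusted p = 4.8e-07), and CCND1, cyclin D1, 210, 193, 191 and 193 against 147, 107, 108 and 117 (log2 -0.72 ± 0.09). Of 27 ERK output genes 12 were lower and 4 higher (median -0.17), and after the correction 9 were lower and 11 higher (median 0.04).

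Matrix and adhesion genes were lower on balance. Of 30 mesenchymal and matrix genes 23 fell and 1, SNAI1, rose (median -0.40; -0.26 after length and GC correction with 21 lower and 4 higher). THBS1, thrombospondin, went from 459 ± 25.3 to 265 ± 49.4 FPKM, and COL4A1, of basement membrane collagen, from 54.1 ± 6.58 to 25.6 ± 6.99. FLNC, a filamin that crosslinks actin, had 19.3, 15.4, 15.7 and 16.7 FPKM with vehicle and 9.63, 6.35, 6.83 and 6.90 with AZ1366 (log2 -1.09 ± 0.10; -0.68 after the correction). Of 29 actin and focal adhesion genes 18 were lower and 6 higher.
Integrins moved in both directions: of 20 integrin and laminin-332 genes 11 were lower and 3 higher (median -0.32, and 0.02 in AZ1366 library 1). The 3 that rose were beta subunits. ITGB8 had 2.71, 2.42, 2.32 and 2.19 FPKM with vehicle and 7.01, 5.43, 5.23 and 5.48 with AZ1366 (log2 0.99 ± 0.09, adjusted p = 2.5e-07), and ITGB6 32.5, 29.6, 31.0 and 32.7 against 60.3, 55.7, 53.3 and 59.2 (log2 0.84 ± 0.06, adjusted p = 3.0e-08). Both encode partners of the alpha v subunit in integrins that activate latent TGF-beta, both transcripts are long (8751 and 4675 nucleotides), and both changes were larger after the correction (1.09 and 0.96). LTBP2, of the latent TGF-beta binding protein family, was lower, from 28.8 ± 2.76 to 14.8 ± 4.15 FPKM.
Matrix proteases were split as deposited, with 10 of 23 higher and 8 lower, while 14 were higher and 5 lower after the correction. Counts without AZ1366 library 1 were 10 higher and 11 lower. MMP7, matrilysin, had 6.5, 7.32, 7.08 and 7.20 FPKM with vehicle and 11.8, 14.5, 13.1 and 14.8 with AZ1366 (log2 0.85 ± 0.08). MMP1 and MMP10 were under the filter and were not tested, and were picked after their values were seen. MMP1 had 0.502, 0.906, 0.785 and 0.625 FPKM with vehicle and 2.73, 2.88, 2.76 and 2.43 with AZ1366, and MMP10 0.0792, 0.342, 0.335 and 0.255 against 1.42, 1.23, 1.44 and 1.22. For both the groups are far apart, at low levels. Other untested members went both ways. ADAMTS6 fell from a mean of 0.727 to 0.324 FPKM and ADAMTS5 from 0.0914 to 0.0403, both without overlap. MMP3 had 0 FPKM with vehicle and a mean of 0.0469 with AZ1366, and the groups of TIMP3 and SERPINB2 overlapped.

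Lists of cornified envelope, S100, claudin and secretory genes were higher on balance. The list of epithelial junction genes, which shares CLDN4, CLDN7 and ELF3 with the genes below, was not higher on balance as deposited. Of its 33 genes 10 were higher and 13 lower (median -0.01), and 9 higher and 16 lower without AZ1366 library 1. After length and GC correction 15 were higher and 11 lower (median 0.07), and after median-ratio scaling 15 and 12 (median 0.09). SPRR1A and SPRR1B, which encode small proline-rich proteins of the cornified envelope, had 2.20, 2.55, 2.95 and 1.75 FPKM with vehicle against 7.84, 6.73, 7.75 and 7.19 with AZ1366 (log2 1.33 ± 0.09, adjusted p = 2.7e-08), and 4.48 ± 1.03 against 11.3 ± 1.13 (log2 1.18 ± 0.13). Library 1 is not the lowest of the AZ1366 libraries for either. Of 13 cornified envelope and keratin genes 8 were higher and 1, KRT80, lower (10 and 1 after length and GC correction), while KRT8, a simple epithelial keratin, went from 1454 ± 136 to 914 ± 69.5 FPKM. Of 10 S100 genes 9 were higher and none lower (median 0.44; 0.29 after the correction with 8 higher and 1 lower). S100A4, linked to motility, had 8.73, 9.26, 9.08 and 9.64 FPKM with vehicle and 15.9, 20.1, 18.1 and 19.7 with AZ1366 (log2 0.93 ± 0.08), and S100A2 went from 58.3 ± 3.13 to 96.2 ± 4.92.
FXYD3, a regulator of the sodium pump, had 29.7, 40.8, 37.2 and 33.9 FPKM with vehicle and 71.2, 68.1, 85.3 and 93.4 with AZ1366 (log2 1.14 ± 0.09, adjusted p = 1.4e-07). The tight junction genes CLDN4 (97.2 ± 7.18 to 142 ± 7.11 FPKM) and CLDN7 (89.2 ± 6.99 to 135 ± 13) rose as well, and 5 of 7 FXYD and claudin genes were higher with none lower. Of 11 mucin and airway secretory genes 10 were higher and 1 lower. AGR2, a chaperone of mucin folding, had 128, 131, 141 and 151 FPKM with vehicle and 226, 254, 243 and 252 with AZ1366 (log2 0.82 ± 0.06, adjusted p = 8.2e-08), and MUC1, a membrane mucin, went from 54.4 ± 4.75 to 91.1 ± 9.34. SPDEF, a factor of goblet cells, was the gene that fell, with overlapping groups and a call that was lost after median-ratio scaling and in several other settings. ELF3, an epithelial ETS factor, rose from 38.3 ± 3.58 to 57.7 ± 6.14 FPKM. In the lung lineage list 5 of 13 were higher and 4 lower (7 and 2 after length and GC correction). HOPX, of alveolar cells, went from 1.67 ± 0.134 to 3.27 ± 0.323 FPKM and SLC34A2, their phosphate transporter, from 2.02 ± 0.0523 to 3.33 ± 0.163.

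**Figure D4:**
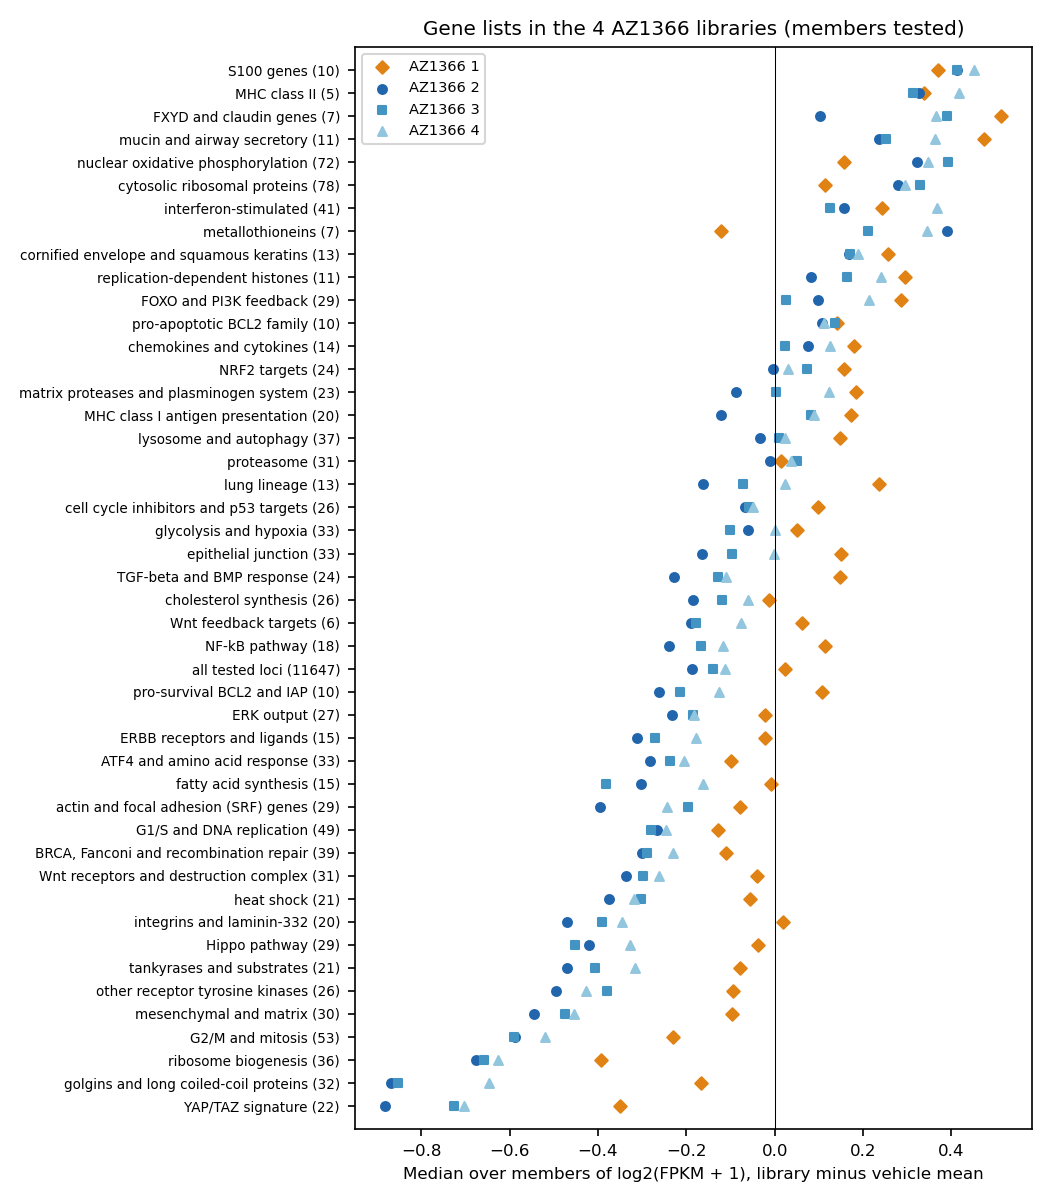
Median difference from the vehicle mean on the log2(FPKM + 1) scale (x) over the members of each list (y, number tested in brackets) in AZ1366 libraries 1 to 4. The YAP/TAZ signature lies at -0.35 in library 1 and -0.88 to -0.70 in the others, the golgins at -0.17 and -0.87 to -0.65, and the S100 genes lie at 0.37 to 0.45 in all 4.

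IL8, a chemokine that attracts neutrophils, rose most among the genes that the naming rule gave. It had 2.81, 5.66, 4.81 and 3.73 FPKM with vehicle and 12.2, 10.6, 16.4 and 14.7 with AZ1366 (log2 1.48 ± 0.14, adjusted p = 7.9e-07; 1.18 after length and GC correction). CCL2, a monocyte attractant, had 36.9, 45.4, 41.6 and 40.3 FPKM with vehicle and 89.1, 89.1, 93.0 and 91.8 with AZ1366 (log2 1.13 ± 0.06, adjusted p = 8.9e-10; hg19 chromosome 17, 32582296 to 32584220). Every AZ1366 library of both genes was above every vehicle library, and library 1 lay among the others. CXCL11, an interferon-induced chemokine, went from 0.605 ± 0.189 to 2.18 ± 0.324 FPKM, and the cytokine gene IL32 from 11.3 ± 0.620 to 16.7 ± 0.495. Of 14 chemokine and cytokine genes 6 were higher and 2 lower, and the median, 0.13, was -0.04 after the correction, so the list as a whole had no steady direction. LY96, the LPS coreceptor MD-2, had 5.10, 6.27, 7.26 and 5.41 FPKM with vehicle and 11.7, 15.2, 15.9 and 14.7 with AZ1366 (log2 1.13 ± 0.12; 0.66 after the correction).
NF-kB pathway genes did not move together: 4 of 18 were higher and 5 lower. Counts without AZ1366 library 1 were 4 higher and 9 lower, and after the correction 9 higher and 2 lower. NFKBIA, the inhibitor IkB-alpha, was higher (34.1 ± 3.46 to 50.2 ± 5.65 FPKM), as was BIRC3, an inhibitor of apoptosis (9.47 ± 0.710 to 14.8 ± 0.400), while the deubiquitinase gene TNFAIP3 was lower (6.27 ± 0.283 to 3.87 ± 0.689). Of 41 interferon-stimulated genes 21 were higher and 3 lower (median 0.20). Counts without AZ1366 library 1 were 19 higher and 6 lower, and after the correction 29 higher and 1 lower. OAS1, a sensor of double-stranded RNA, had 3.80, 4.19, 3.54 and 5.76 FPKM with vehicle and 7.82, 6.26, 8.43 and 10.1 with AZ1366 (log2 0.78 ± 0.12), and IRF9, of the interferon signalling complex, went from 12.2 ± 1.63 to 21.1 ± 3.97. IFI27 had 9.18, 9.03, 10.1 and 14.5 FPKM with vehicle and 17.6, 17.5, 19.5 and 28.9 with AZ1366 (log2 0.90 ± 0.14). In OAS1 and IFI27 vehicle library 4 and AZ1366 library 4 are the highest of their groups. Over the whole interferon list the groups overlapped. Its mean log2(FPKM + 1) was 3.782 in vehicle library 4, above AZ1366 libraries 2 and 3 (3.666 and 3.705). Vehicle libraries 1 to 3 had 3.5 to 3.53, and AZ1366 libraries 1 and 4 had 3.853 and 3.921. IFIT3 was lower (log2 -0.31 ± 0.11, adjusted p = 0.020), a call that was lost after median-ratio scaling. B2M, the light chain of MHC class I, went from 1633 ± 151 to 2510 ± 196 FPKM. Of 20 class I presentation genes 5 were higher and 2 lower (4 and 4 without AZ1366 library 1, 9 and 1 after the correction). All 5 MHC class II genes tested were higher as deposited and 4 after the correction, led by HLA-DMA (2.67 ± 0.376 to 4.58 ± 0.231 FPKM), whose symbol another locus of the table shares, so its value may cover part of its reads.

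BMF, which encodes a BH3-only protein that promotes apoptosis, had 6.52, 5.83, 5.51 and 6.29 FPKM with vehicle and 16.1, 13.4, 12.7 and 14.7 with AZ1366, a 2.36-fold rise (log2 1.11 ± 0.07, adjusted p = 9.1e-09; 1.05 without library 1, 1.29 after length and GC correction; hg19 chromosome 15, 40380092 to 40401075). BIK, another of this family, went from 4.29 ± 0.322 to 7.38 ± 0.801 FPKM. BCL2L11, which encodes BIM, moved little: 2.90, 2.61, 2.16 and 2.66 FPKM with vehicle and 3.27, 2.92, 2.83 and 3.11 with AZ1366 (log2 0.17 ± 0.06, adjusted p = 0.025), with overlapping groups and no call without library 1 (0.15). Of 10 pro-apoptotic genes 5 were higher and 1 lower.
FOXO and PI3K feedback genes, which rise when AKT signalling is low, gave 14 higher and 5 lower among 29 (median 0.18). Counts without AZ1366 library 1 were 12 higher and 7 lower, and after the correction 18 and 5 (median 0.27). YPEL5 had 32.6, 39.2, 39.5 and 39.2 FPKM with vehicle and 60.3, 71.8, 73.5 and 74.8 with AZ1366 (log2 0.88 ± 0.08, adjusted p = 2.5e-07). HBP1, a repressor of cell cycle genes, went from 19.7 ± 0.703 to 30.9 ± 1.90 FPKM, and FBXO32, the ligase atrogin-1, from 5.82 ± 0.177 to 9.65 ± 0.968, while the adaptor IRS2 fell from 2.62 ± 0.113 to 1.32 ± 0.320. The cell cycle inhibitor CDKN1A (p21) had 29.1 ± 0.728 FPKM (SD, n = 4) with vehicle and 45.9, 46.6, 47.9 and 46.8 with AZ1366 (log2 0.67 ± 0.04, adjusted p = 6.4e-09), and TP53INP1 went from 1.04 ± 0.0639 to 2.92 ± 0.379. PLK2, also a p53 target, was lower (55.6 ± 3.61 to 27.8 ± 5.17 FPKM). The list of cell cycle inhibitors and p53 targets had 6 higher and 8 lower among 26, and 12 higher and 7 lower after the correction. Counts without AZ1366 library 1 were 5 higher and 10 lower.
Further genes that rose by about 1 in log2 had tight groups. NCOA7, an oxidation resistance and nuclear receptor coactivator gene, had 6.65, 6.78, 6.62 and 6.78 FPKM with vehicle and 15.0, 14.7, 14.4 and 15.7 with AZ1366 (log2 1.05 ± 0.06, adjusted p = 3.6e-09). KLHL24, a ligase adaptor gene, had 1.95, 2.28, 2.19 and 2.23 FPKM with vehicle and 5.42, 5.38, 4.55 and 5.37 with AZ1366 (log2 0.96 ± 0.06, adjusted p = 9.1e-09). Both transcripts lie in the longest of the 5 length classes, at 5521 and 7380 nucleotides, where 194 of 2308 loci were called higher. AKR1B10, an aldo-keto reductase gene, went from 1.88 ± 0.279 to 4.79 ± 0.471 FPKM, GDF15, a stress cytokine, from 5.21 ± 0.209 to 10.1 ± 1.16, and GABARAP, of autophagy, from 135 ± 11 to 232 ± 25.9.

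Metabolic and stress lists were mixed. Fatty acid synthesis genes were lower in 9 of 15 cases and higher in 1, but the median of -0.24 was 0.02 after length and GC correction (4 lower, 2 higher). FASN, fatty acid synthase, kept its call in all 3 fits (39.6 ± 6.52 to 20.8 ± 4.69 FPKM). Cholesterol synthesis genes were lower in 12 of 26 cases and higher in 4. Of 33 amino acid response genes 19 were lower and 2 higher, among them the transporter gene SLC7A5 (24.3 ± 1.45 to 16.2 ± 1.52). Heat shock genes were lower in 13 of 21 cases and higher in 3: HSPH1 went from 59.2 ± 2.37 to 37.6 ± 7.05 FPKM and the small heat shock gene HSPB1 from 229 ± 11.2 to 353 ± 28.6. Glycolysis genes were higher in 10 and lower in 10 of 33 cases as deposited, and higher in 17 and lower in 5 after the correction (median 0.13). Median-ratio scaling, which uses no lengths, gave 15 higher and 8 lower, and the counts without AZ1366 library 1 were 10 and 11. NRF2 targets were higher in 7 and lower in 5 of 24 (13 and 4 after the correction, median 0.12, and 16 and 4 after median-ratio scaling). The ferritin gene FTH1 was up from 1058 ± 112 to 1636 ± 142 FPKM.

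AZ1366 was compared directly with gefitinib to ask where the responses to the 2 compounds differ, a contrast in which the vehicle libraries cancel. It uses the same AZ1366 libraries as above. Of the 11647 loci 17.9% were higher with AZ1366 than with gefitinib (2088) and 28.1% lower (3273). After length and GC correction the counts were 3571 and 3061, and list counts of this comparison are as deposited. The signature stood lower with AZ1366 in 16 of 22 genes and higher in 1 (median -0.68, all loci -0.04). CTGF had 9.17 FPKM with AZ1366 and 45.1 with gefitinib, above the 19.6 of vehicle (log2 -2.18, adjusted p = 4.8e-16). ERK output stood higher with AZ1366 in 22 of 27 genes (median 0.84): DUSP6 had 22.8 FPKM with AZ1366 and 2.71 with gefitinib (log2 2.68), and CCND1 120 and 64.9 (log2 0.86).
Interferon-stimulated genes stood lower with AZ1366 in 40 of 41 cases and higher in 1 (median -0.72); IFI27 had 20.9 FPKM with AZ1366 and 47.6 with gefitinib (log2 -1.18). G1/S genes stood higher with AZ1366 in 39 of 49 cases, G2/M genes in 30 of 53 and ribosome biogenesis genes in 21 of 36, with none lower. Golgins differed in 3 of 32 cases, all lower with AZ1366; a p that misses the threshold does not show equal levels. EGFR stood at 41.3 and 38.1 FPKM (log2 0.10, adjusted p = 0.51). BMF and MMP7 stood lower with AZ1366, at 14.2 against 25.2 FPKM and 13.5 against 51.8. SPRR1A, SPRR1B and IL8, by contrast, stood higher with AZ1366 (7.38 against 2.14, 11.3 against 1.68 and 13.5 against 2.83 FPKM; log2 1.42, 2.21 and 1.91).

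The same compound was also measured as the combination against gefitinib, in 8 libraries that form neither side of AZ1366 against vehicle, though they share its fit and its estimate of spread. The gefitinib libraries also serve in the direct comparison with AZ1366. There 15.3% of loci were higher (1780) and 37.2% lower (4338) when AZ1366 was added. After length and GC correction the counts were 3170 and 2967, and all other counts of this paragraph are as deposited. Of the 6801 loci called for AZ1366 alone 4727 were called in the same direction, which is 69.5% of the first list and 77.3% of the second, and 27 were called in the opposite direction. All 22 signature genes were lower again (median -0.79): CTGF had 45.1 FPKM with gefitinib and 19.1 with both (log2 -1.20, adjusted p = 1.5e-11), ANKRD1 21.9 and 9.03, and AXL 92.4 and 42.6. G2/M genes were lower in 53 of 53 cases, G1/S genes in 49 of 49, golgins in 31 of 32 and ribosome biogenesis genes in 33 of 36. The gefitinib libraries differed among themselves in some long transcripts. Libraries 1 to 4 had 6.26, 7.12, 2.27 and 1.38 FPKM for CENPE and 8.92, 9.21, 5.02 and 3.90 for GOLGA4. Why they differ was not tested. BMF was higher again (25.2 to 35.3 FPKM), as were CXCL11 (11.1 to 25.8), IL8 (2.83 to 5.48), SPRR1A (2.14 to 4.33) and MMP7 (51.8 to 74.0). EGFR fell again (38.1 to 20.8), and DUSP6 did not pass (2.71 against 2.99 FPKM, adjusted p = 0.29). The transcripts of the coactivators YAP1 and WWTR1 did not pass in this background (adjusted p = 0.065 and 0.53).

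**Figure D5:**
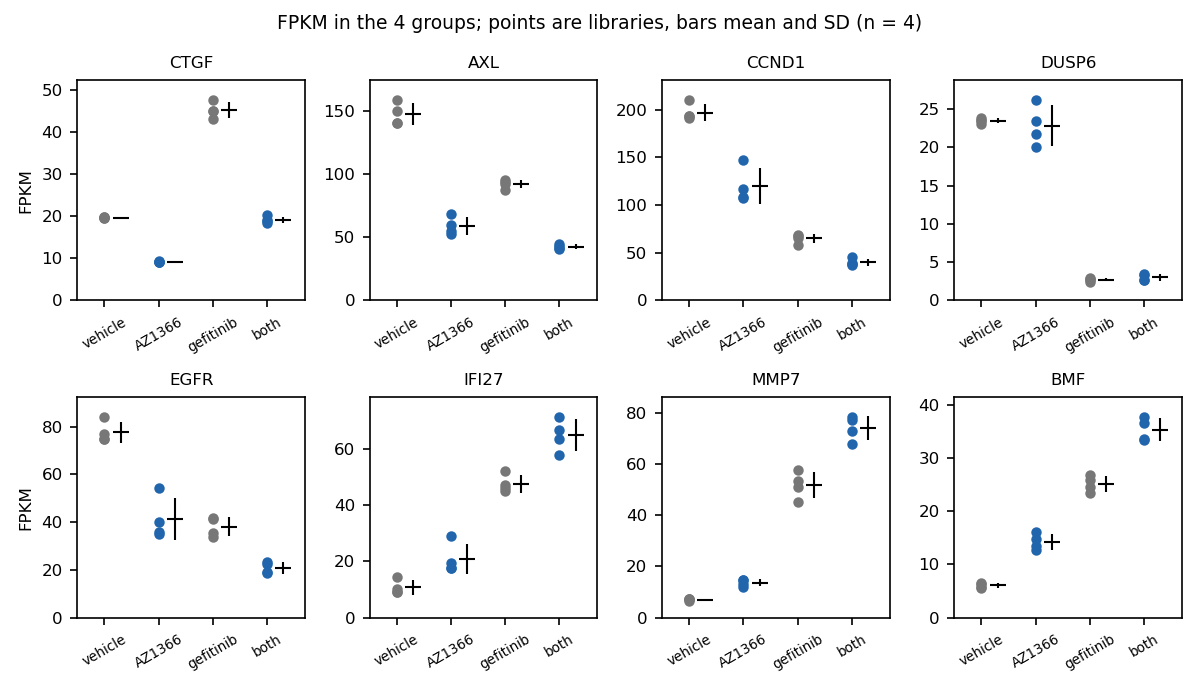
FPKM (y, from 0) of 8 genes in the 4 groups, with a point per library and bars for mean and SD. CTGF, AXL, CCND1 and EGFR are lower with AZ1366 than with vehicle and lower with both compounds than with gefitinib, while DUSP6 has means of 23.5 FPKM with vehicle, 22.8 with AZ1366 and 2.71 with gefitinib.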

How the data were processed

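PolyA RNA of HCC4006 cells was sequenced in 16 libraries, and the 8 of AZ1366 and vehicle carry the results. The deposited values are FPKM per locus made by the authors; the submitters' processing notes name TopHat 1.4.1, Cufflinks 1.3.0, Cuffdiff and hg19. The table holds no counts, so depth per library is unknown and no counting error is given. Of 24293 loci, 11647 with a mean of at least 1 FPKM over the 16 libraries were tested as log2(FPKM + 1) with limma 3.58.1 in R 4.3.3, two-sided, with 1 factor of 4 groups, a mean-variance trend, 12 residual degrees of freedom and Benjamini-Hochberg adjustment at 0.05. Every adjusted p is from this fit. Transcript lengths and GC content came from GENCODE transcripts (assembly GRCh38) for 11537 loci. Of these 11311 were matched by RefSeq accession and 226 by symbol, the latter with the longest transcript. The correction removed spline trends on both from each library, together with the mean offset of the library. The fit was tested on simulated data with independent noise per locus and library. Such data cannot speak to a shift that sets 1 library apart, as for AZ1366 library 1.

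The genes described, the lists and the tests were chosen with earlier results of these data known. The naming rule took, from called loci of 1 symbol with groups that do not overlap and a stable call, the 12 that rose most and the 12 that fell most, up to 4 called members per list and direction with the smallest p, a fixed set of pathway genes, and the 3 that rose and fell most in the shortest and longest length classes; the text prints part of these. NF2, LATS2, TEAD1, TEAD4, CTNNB1, LGR5, NUAK2, GADD45A, RBMS3, IGFBP3 and FOXF2, genes under the filter other than AXIN2 and AMOT, and genes given by name only were added after their values were seen. Of the tested loci 285 carry joined symbols and 203 share a symbol. Alternatives were other scalings, pseudocounts, filters and length corrections, a replicate block, and leaving out each library.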

Additional observations from a re-analysis of the deposited data

Results flagged for a closer look

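In 29 of 362 groups of 4 libraries, 1 library lay far from the other 3: its gap to the nearest of them, as a share of the group's range, passed Dixon's 95% critical value. Chance flags about 1 in 20 such groups, and members of 1 list are not independent. AZ1366 library 1 was the library in 11 of them and vehicle library 1 in 10.

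For AZ1366 library 1 the shares were 0.87 for the S100 genes, 0.887 for metallothioneins, 0.851 for FRMD6, 0.842 for ITGB8, 0.957 for BAMBI, 0.854 for TNFAIP3, 0.862 for CDK1, 0.898 for COX7B, 0.905 for HSPH1, 0.88 for FTH1 and 0.877 for TEAD1. For vehicle library 1 they were 0.834 for the tankyrases and partners, 0.874 for the Hippo pathway, 0.902 for COL8A1, 0.868 for CENPF, 0.884 for CCND1, 0.934 for B2M, 0.837 for GAS6, 0.901 for HSPH1, 0.957 for YPEL5 and 0.859 for TEAD4.

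AZ1366 library 2 stood apart in the cornified envelope genes (0.883), the FXYD and claudin genes (0.925) and C4orf48 (0.885), and AZ1366 library 3 in KLHL24 (0.949). Vehicle library 2 stood apart in the S100 genes (0.899), vehicle library 3 in AMOTL1 (0.84), and vehicle library 4 in the interferon-stimulated genes (0.893) and CENPE (0.857).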

How the results depend on the processing

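Loci higher with AZ1366 than with vehicle, 2168 as reported, numbered 3341 after quantile normalization, 3540 after median-ratio scaling, 3327 after length correction, 3371 after length and GC correction and 3678 with that correction and AZ1366 library 1 left out. They numbered 1106 in the middle 3 length classes and 17 with a minimum log2 change of 1, where 31 loci were lower. Leaving out 1 library at a time gave 1857 to 2178 higher and 3790 to 5716 lower, the last without AZ1366 library 1. Loci higher with AZ1366 than with gefitinib, 2088 as reported, numbered 3181 after quantile normalization, 3375, 3571 and 3727 after length correction, length and GC correction, and the latter without AZ1366 library 1, 1184 in the middle classes and 52 with the minimum change. Loci lower in that comparison numbered 2070 at a mean of at least 5 FPKM and 157 with the minimum change; leaving out 1 library gave 1783 to 2227 higher and 2707 to 4497 lower. Loci called in the same direction in the gefitinib background, 4727 as reported, numbered 2883 in the middle classes, 18 with the minimum change and 3874 to 5116 with 1 library left out. Fewer loci are tested in the middle classes and by the filter of 5 FPKM; the cause of the other shifts was not tested.

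With the replicate number as a replicate block, 2249 loci were higher and 4882 lower with AZ1366 than with vehicle, 2258 and 3548 against gefitinib, and 5146 were shared in direction with the gefitinib background. Deviations of same-numbered vehicle and AZ1366 libraries correlated at 0.488, 0.059, 0.132 and 0.121, and AZ1366 libraries 2 to 4 correlated best with another number, so the numbers were not taken to pair the libraries. Of 131 genes tested under each alternative, 10 lost a call in at least 1 (YAP1, RNF146, BCL2L11, ZNRF3, SPDEF, IFIT3, CDK1, GADD45A, RBMS3 and FOXF2), and CDK1 changed sign after length and GC correction (-0.029). WWTR1, DUSP6, TNKS, TNKS2, CTNNB1 and LGR5 gained a call in at least 1 alternative. Without depth, the counting error at low FPKM is unknown.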

Other observations

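Of 11 replication-dependent histone genes 5 were higher and none lower (median 0.19), and 2 of 7 metallothionein genes were higher and none lower (median 0.20, and -0.03 after length and GC correction). Of 37 lysosome and autophagy genes 11 were higher and 4 lower, and 20 were higher and none lower after the correction. Counts without AZ1366 library 1 were 13 higher and 8 lower. Of 24 TGF-beta and BMP response genes 5 were higher and 8 lower (median -0.10, and 0.10 after the correction), and 5 higher and 12 lower without AZ1366 library 1. Of 10 pro-survival BCL2 and IAP genes 2 were higher and 3 lower (2 and 5 without AZ1366 library 1, 2 and 1 after the correction).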
